A study of Mus musculus with 6 samples.

Results

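Bone morphogenetic proteins (BMPs) are secreted ligands that bind pairs of serine/threonine kinase receptors, which phosphorylate Smad proteins that enter the nucleus and switch target genes. In the early forebrain BMPs are made mainly at the dorsal midline, in the roof plate, the cortical hem beside it and the choroid plexus that forms there, and also in the overlying surface ectoderm and head mesenchyme. The 10 genes described here are 5 BMP ligands (Bmp2, Bmp4, Bmp5, Bmp6 and Bmp7), the secreted modulator Bmper, the secreted antagonist Nog, the membrane pseudoreceptor Bambi, which blunts BMP signalling, and the homeobox genes Msx1 and Msx2, classical transcriptional targets of the pathway. They were chosen by name: a probe belongs to the set if its gene symbol in the authors' comparison table equals one of the 10. That held for 9 genes, 6 of them in the table's current symbol column and 9 in its older array symbol column, each with 1 probe. Bambi had no row in that table. Its probe was found in the scanner files by accession only.

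The levels come from 1-colour arrays hybridised with RNA from single mouse embryos at stage E11.5 (E for embryonic day), from which the dorsal forebrain was dissected. There were 3 control and 3 mutant embryos in 3 litters, and each litter gave 1 control and 1 mutant, so that control 1 and mutant 1 were littermates, and likewise for numbers 2 and 3. The labels name the groups only as control and mutant. The mutated gene, any Cre driver, the strain and the genotype of the controls are not given in the sources used here, while the title of the series concerns Wnt/beta-catenin signalling in cortical precursors. A level is the log2 of the probe's signal divided by the 75th percentile of the signals on the same array. A difference is mutant minus control on this log2 scale. In bulk tissue, fewer cells of a type and less RNA per cell cannot be told apart. A level says nothing across genes, since probes differ in brightness.

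The tissue carried markers of its label, but not only those. Lhx2 and Emx2, homeobox genes of cortical progenitors, were well above background on all 6 arrays. So was Dlx2, a marker of the subpallium, which lies outside the dorsal forebrain. Dlx2 read 1.87, 1.58 and -1.27 in controls 1, 2 and 3 and 2.16, 1.58 and 2.74 in mutants 1, 2 and 3. Between 65.75% and 70.1% of spots per array were well above background, and no spot was saturated. Control 1 and mutant 1 shared a slide, slide 1, and the other 4 arrays shared slide 2. After scaling, signals near background read higher on the mutant arrays, for a reason that was not tested. The lowest level well above background was -7.33, -7.42 and -7.38 in controls 1, 2 and 3 and -6.55, -6.87 and -7.09 in mutants 1, 2 and 3. The 3 arrays in each group limit the precision of every value.

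None of the 9 measured genes passed the test over all 21068 genes and unnamed probes (limma, adjusted p from 0.226 to 0.99). At an unadjusted p under 0.05 there were 2 of the 9, Bmp6 and Bmper, both higher in mutants, where 16.9% of all rows reached that level (9.50% higher and 7.44% lower) and 0.0332% passed after adjustment. Bmp6 met the filter on dim probes through the mutants, with 3 of 3 mutant and 1 of 3 control arrays above background, so that its p is no support for a difference. With litter as a block neither gene stayed under 0.05 (unadjusted limma p of 0.0675 for Bmp6 and 0.0577 for Bmper), while Nog and Msx2 came under it. Over all rows 7 passed, and with litter as a block 0 did (4181 at an unadjusted p under 0.05). The mutants differed among themselves. Mutant 1 had the highest of the 3 mutant levels for 8 of the 9 genes and mutant 3 the lowest for 8 of the 9, against 32.99% and 29.6% of all rows. Bmper was the exception in both counts. The SD between mutants exceeded that between controls for 8 of the 9 genes, against 66.8% of all rows. The difference was positive for 6 of the 9 genes and for 55.0% of all rows. The median difference of the 9 genes was 0.48, and that of all rows 0.03. The positive count and this median include Bmp6, which was kept through the mutants, and neither is support for a shift of the set.

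**Figure D1:**
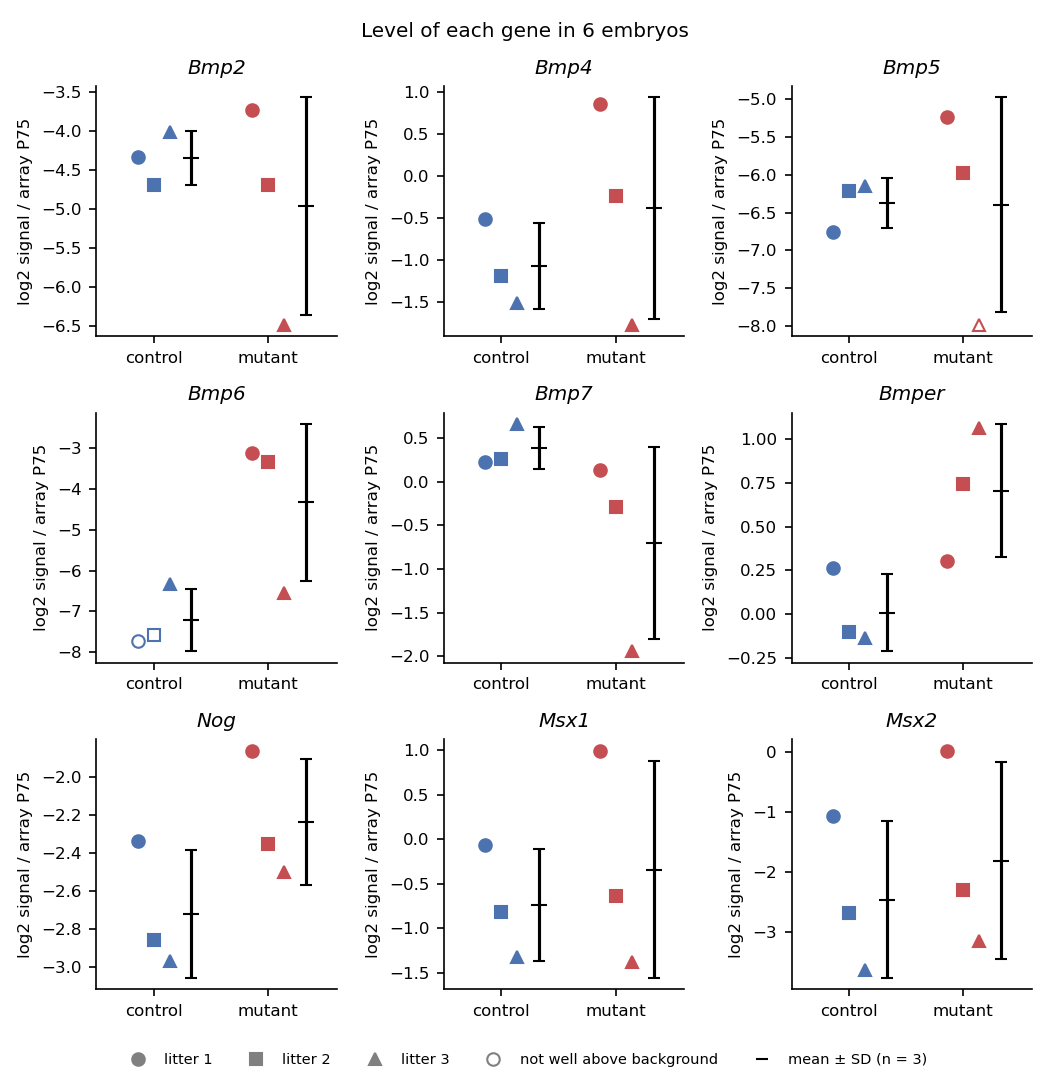
Log2 level of each of the 9 measured genes, relative to the 75th percentile of its array, in 3 control (blue) and 3 mutant (red) embryos, with marker shapes for litters, open symbols for probes not well above background, and bars for mean and SD (n = 3 each). The mutant points spread more widely than the control points in every panel but that of Nog, and the mutant of litter 3 is the lowest mutant in every panel but that of Bmper.

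The DNA just upstream of 4 of these genes is shown. They were picked for their levels and not for the motifs searched. Bmp6 and Bmper had the smallest unadjusted p, and Bmp4 was the gene of the set nearest to Msx1 in its course over the embryos. Each is the 250 bases before the annotated start of transcription, 5′ to 3′ on the gene's strand, from RefSeq on GRCm38.p6, where 6 of the 10 genes had an entry. Capitals mark matches, on either strand, to GTCTG, the Smad box, and CTTTGA, the core of TCF/LEF sites. Another motif, GGCGCC, a GC-rich element bound by Smads of the BMP branch, was searched too. The windows lie at chr13:38345466-38345715 (plus strand, Bmp6), chr9:23222826-23223075 (plus strand, Bmper), chr14:46390670-46390919 (minus strand, Bmp4) and chr5:37824586-37824835 (minus strand, Msx1).
Bmp6: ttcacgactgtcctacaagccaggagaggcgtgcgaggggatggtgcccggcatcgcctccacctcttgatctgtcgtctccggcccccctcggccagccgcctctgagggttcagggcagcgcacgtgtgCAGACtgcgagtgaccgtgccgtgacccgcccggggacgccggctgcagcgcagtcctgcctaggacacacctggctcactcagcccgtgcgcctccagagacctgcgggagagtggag
Bmper: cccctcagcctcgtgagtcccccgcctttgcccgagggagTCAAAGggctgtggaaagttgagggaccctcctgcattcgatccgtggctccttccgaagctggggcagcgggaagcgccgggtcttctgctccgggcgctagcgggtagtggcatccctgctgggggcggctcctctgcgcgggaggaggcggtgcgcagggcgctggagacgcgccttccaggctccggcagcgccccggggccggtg
Bmp4: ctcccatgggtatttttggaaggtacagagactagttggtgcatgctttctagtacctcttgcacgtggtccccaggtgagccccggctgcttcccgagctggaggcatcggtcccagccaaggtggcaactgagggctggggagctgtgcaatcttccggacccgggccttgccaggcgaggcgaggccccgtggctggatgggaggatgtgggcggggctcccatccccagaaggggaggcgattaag
Msx1: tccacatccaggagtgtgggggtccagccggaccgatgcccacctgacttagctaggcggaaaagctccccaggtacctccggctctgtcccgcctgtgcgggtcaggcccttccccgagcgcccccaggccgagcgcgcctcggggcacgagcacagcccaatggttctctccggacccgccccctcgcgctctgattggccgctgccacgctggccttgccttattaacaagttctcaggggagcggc
The Bmp6 window held 1 Smad box, read on the opposite strand as CAGAC, with its first base 119 bases before the start. The Bmper window held 1 TCF/LEF core, read on the opposite strand as TCAAAG, 210 bases before the start. Neither of the other windows printed here held any of the 3 motifs. Of the windows not printed, that of Bmp5 held 1 Smad box, 134 bases before the start, and that of Msx2 held none of the 3 motifs. Of 32851 such windows in the table, 42.2% held GTCTG, 13.8% held CTTTGA and 9.59% held GGCGCC, so that single matches of this kind are common, and a match is a description of the letters and not a site shown to be bound.

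Among the ligands, Bmp6 stood out in 2 of the 3 mutants. BMP6 belongs to the BMP5/6/7 subgroup and is made at the dorsal midline of the forebrain. Its level was -7.73, -7.57 and -6.34 in controls 1, 2 and 3 and -3.12, -3.33 and -6.55 in mutants 1, 2 and 3. The first 2 mutants were thus far above every control, and mutant 3 lay within the control range, so that the groups overlapped. Controls 1 and 2 were not well above background, so that their readings are upper limits. Against the lowest level well above background on the control array, mutant 1 exceeded its littermate by at least 4.21 and mutant 2 by at least 4.08 (log2), and mutant 3 differed from control 3 by -0.21. The fitted difference over all embryos was 2.88 (SE 0.99, 95% interval 0.44 to 5.32, limma, adjusted p = 0.246), and its size rests in part on those 2 background readings. It was 2.02 on slide 2 alone, 3.99 without mutant 3 and 1.34 with normexp background correction. Without litter 3, an omission chosen after seeing the data, it was 4.42, a value set by background since no control left was above it. The authors' deposited table gives a log2 ratio of 1.557 and an fdr of 0.14. Its probe lies in mm9 on chromosome 13 from 38591479 to 38591538. On the same build the probe of Bmp4 lies on chromosome 14 from 47003391 to 47003450, that of Bmp7 on chromosome 2 from 172695203 to 172695262, that of Bmper on chromosome 9 from 23289301 to 23289360, that of Nog on chromosome 11 from 89162849 to 89162908 and that of Msx1 on chromosome 5 from 38212305 to 38212364.

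Bmp4, the best studied BMP of the dorsal midline and a regulator of its patterning, gave levels of -0.52, -1.19 and -1.52 in control embryos and 0.86, -0.24 and -1.77 in mutant embryos. Mutants 1 and 2 exceeded all controls and mutant 3 was below all of them. The difference was 0.69 (SE 0.68, 95% interval -0.99 to 2.37), far inside the spread between mutants, and the littermates differed by 1.37, 0.95 and -0.26. On slide 2 alone the difference was 0.35. Without mutant 1 it was 0.07, and without mutant 3 it was 1.38 (limma, unadjusted p = 0.0291). A second Bmp4 probe, matched by accession only, was not well above background on any array and gives no level.

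Bmp7, another member of the BMP5/6/7 subgroup, had a negative difference. Its level was 0.23, 0.26 and 0.66 in control embryos and 0.14, -0.29 and -1.94 in mutant embryos. All 3 mutants lay below all 3 controls, mutant 1 by little, and Bmp7 was the 1 gene of the 9 with this pattern, which 11.9% of all rows showed. The difference was -1.08 (SE 0.54, adjusted p = 0.376). Without mutant 3 it was -0.46, and on slide 2 alone -1.58. The littermates differed by -0.10, -0.55 and -2.61. The authors' deposited table lists -1.043 as its log2 ratio, with an fdr of 0.2112.

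Bmp2, the close relative of Bmp4, read -4.33, -4.69 and -4.01 in control embryos against -3.72, -4.68 and -6.48 in mutant embryos. Mutant 1 was above the control range, mutant 2 inside it and mutant 3 below it. The difference of -0.62 (SE 0.69) became 0.14 without mutant 3, -1.24 without mutant 1, -1.23 on slide 2 alone and -0.08 with normexp background correction. Bmp5 gave a like order of the mutants, with -6.76, -6.21 and -6.15 in control embryos and -5.24, -5.98 and -7.98 in mutant embryos. Its probe was dim, and not well above background in mutant 3. The difference was -0.03 (SE 0.70), or 0.76 without mutant 3, -0.61 without mutant 1 and -0.80 on slide 2 alone. Mutant 3 therefore had the lowest level of all 6 embryos for Bmp2, Bmp4, Bmp5 and Bmp7, and also for Msx1.

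Bmper and Nog, the 2 secreted regulators, differed from the ligands in that all littermate pairs had positive differences. BMPER binds BMPs outside the cell and can either block or promote their action. Bmper read 0.26, -0.10 and -0.13 in control embryos against 0.30, 0.74 and 1.06 in mutant embryos. All mutants were above all controls, which was true of 1 of the 9 genes and of 13.0% of all rows, although mutant 1 exceeded control 1 by only 0.04. The difference was 0.69, that is 1.62-fold (SE 0.22, 95% interval 0.15 to 1.24, adjusted p = 0.226). On slide 2 alone it was 1.02, and without litter 3 it was 0.44. With litter as a block its adjusted limma p was 0.264. The authors' deposited table gives a log2 ratio of 0.5909 with an fdr of 0.1192.

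NOG binds BMPs and keeps them from their receptors. Nog read -2.34, -2.85 and -2.97 in control embryos against -1.86, -2.35 and -2.50 in mutant embryos. The groups overlapped, since control 1 was above mutants 2 and 3, but each mutant was above its own littermate, by 0.48, 0.51 and 0.47. These 3 differences were nearly equal, while the controls spanned 0.63. With litter as a block the difference of 0.48 had an unadjusted limma p of 0.0018, and 0.0861 without the block, while the adjusted p with the block was 0.156, which did not pass. Without mutant 1 the difference was 0.30. Bambi was not well above background on any array, so that no level or fold is given for it.

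**Figure D2:**
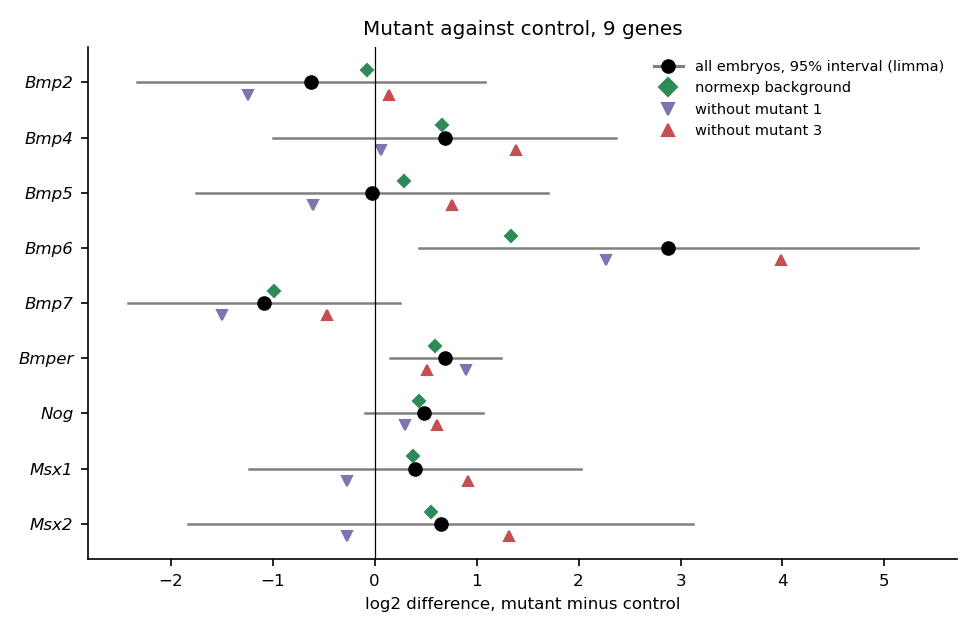
Log2 difference, mutant minus control, for each of the 9 measured genes, with its 95% interval from limma (black, gray line), and the same difference with normexp background correction (green), without mutant 1 (purple) and without mutant 3 (red). The intervals of Bmp6 and Bmper lie above 0 before adjustment and without the litter block, 2 of the 3 Bmp6 controls being at background, and leaving out 1 mutant moves Bmp2, Bmp5, Msx1 and Msx2 across 0.

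MSX1 and MSX2 are homeodomain repressors induced by BMPs at the dorsal midline, and in head mesenchyme and ectoderm. Msx1 read -0.07, -0.82 and -1.33 in control embryos against 0.998, -0.64 and -1.38 in mutant embryos. Msx2 read -1.06, -2.68 and -3.63 in control embryos against 0.02, -2.30 and -3.14 in mutant embryos. For both genes the 2 embryos of litter 1 were the highest of all 6, and the groups overlapped. The differences were 0.40 for Msx1 (SE 0.66, 95% interval -1.23 to 2.03, adjusted p = 0.792) and 0.65 for Msx2 (SE 1.003, 95% interval -1.83 to 3.12, adjusted p = 0.776). Both became -0.27 without mutant 1. Without mutant 3 they were 0.92 for Msx1 and 1.32 for Msx2. Without control 1 they were 0.73 and 1.34, and without control 3 they were 0.10 and 0.06. On slide 2 alone they were 0.06 and 0.43. Between littermates Msx2 differed by 1.08, 0.38 and 0.48, positive in each litter, and Msx1 by 1.07, 0.18 and -0.05. With litter as a block Msx2 had an unadjusted limma p of 0.0213 and an adjusted p of 0.192.

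Bmp4 was the gene of the set nearest to Msx1 over the 6 arrays, with a root mean square difference of 0.29 between the 2 profiles, each centred on its own mean. That of Msx2 to Msx1 was 0.47 and that of Bmp6 to Msx1 was 1.63. Among named genes outside the set, the nearest to Msx1 were Olfml1 (0.09), the scavenger receptor Colec12 (0.15) and the secreted Wnt modulator Dkk2 (0.15). Those nearest to Bmp4 were the guidance ligand Slit3 (0.18), Klhdc9 (0.25) and Krt8, a keratin of simple epithelia (0.26). Placed among the named genes outside the set, Bmp4 took rank 34 in nearness to Msx1, and Msx1 rank 5 in nearness to Bmp4. The likeness is over 6 arrays that share litters and slides and is given as a description.

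The order of the mutants in these genes, mutant 1 highest and mutant 3 lowest, was set beside that of marker lists. Mutant 1 was the highest mutant for 5 of 8 cortical hem markers, 5 of 8 of choroid plexus and roof plate, 18 of 18 of meninges and head mesenchyme, 11 of 11 of endothelium, 6 of 10 of surface ectoderm and 0 of 12 of neurons. Mutant 3 was the lowest for 7, 6, 15, 11, 6 and 0 of them. In 4 further lists, mutant 1 was highest for 10 of 10 markers of microglia and macrophages and 4 of 8 of erythroid cells. The counts were 1 of 11 for pallial progenitors and 1 of 11 for subpallium. Mutant 3 was lowest for 3, 8, 2 and 1 of these. Over all rows the shares were 32.99% and 29.6%. Among the BMP genes, Bmper ran the other way. The median level of 8 cortical hem markers, taken relative to the mean of the controls, reached 0.85, 0.65 and -0.64 in mutants 1, 2 and 3, and between -0.17 and 0.32 in the controls. Their summed signal, in units of the array's 75th percentile, ranged from 5.05 to 8.08 in controls and from 1.98 to 12.7 in mutants. The hem gene Wnt8b read 0.54, 0.86 and 1.35 in control embryos against 0.48, -0.12 and -6.15 in mutant embryos, and Rspo1, a Wnt agonist of the hem, 0.44, 1.54 and 1.51 against 2.82, 2.27 and -3.53. Mutant 3 was thus lowest for both genes, as for Bmp2, Bmp4, Bmp5, Bmp7 and Msx1. Wnt7b did not share this order, with 0.15, 0.36 and 0.49 in the mutants. Rspo2 was, like Bmp6, well above background on 1 of 3 control and 3 of 3 mutant arrays, and read -5.33 in control 3, the control above background, against 0.21, -0.13 and -6.88 in mutant embryos. Of 10 hem markers, Wnt2b was not well above background on any array, and Wnt3a was not among the 8 measured either.

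The 8 measured markers of choroid plexus and roof plate had medians of 1.38, 0.84 and -0.16 in mutants 1, 2 and 3, against -0.14 to 0.06 in the controls, with a summed signal from 0.946 to 2.71 in controls and from 2.31 to 4.38 in mutants. Most of that sum was Otx2 in every embryo but control 3, where Otx2 was low (-2.77). The other 7 markers summed to 0.645, 0.651 and 0.799 in controls 1, 2 and 3 and to 1.51, 1.56 and 0.453 in mutants 1, 2 and 3. Kl, Kcne2 and Cldn2, of the 13 listed, were not well above background on any array. Ttr and Calml4, also listed, were not among the 8 measured either. Folr1, a folate receptor of choroid plexus, read -4.93, -5.03 and -4.12 in control embryos against -1.81, -2.12 and -5.71 in mutant embryos, again high in the embryos with high Bmp6. Kcnj13, of the same list, did not share this pattern, with -5.11, -4.72 and -4.73 in controls against -5.13, -4.36 and -4.99 in mutants. The 18 markers of meninges and head mesenchyme, tissues that also express Msx genes, had medians of 1.04, -0.23 and -0.64 in the mutants and 0.12, 0.02 and -0.21 in the controls, with a summed signal from 21.6 to 31.9 in controls and from 15.7 to 47.4 in mutants. Mutant 1 was the highest mutant there, as for 8 of the 9 BMP and Msx genes, all but Bmper. For 10 markers of surface ectoderm the medians were 0.17, -0.02 and -0.12 in the mutants, and the summed signal ran from 2.943 to 2.998 in controls and from 3.001 to 3.507 in mutants, with Krt15 of the 11 listed not well above background on any array. Most of that sum was Trp63 in every embryo (mean level 1.33 in controls and 1.53 in mutants). Of the 10 markers, 4 had positive and 6 negative differences. Medians in mutants 1, 2 and 3 were 0.24, 0.03 and -0.45 for 11 endothelial markers, 0.12, -0.48 and -0.49 for 10 of microglia and macrophages, 0.07, 0.00 and -0.92 for 8 of erythroid cells, 0.05, 0.48 and 0.58 for 12 of neurons, and -0.07, 0.00 and 0.10 for 11 of pallial progenitors. Members of the last list differed in opposite directions: without overlap of the groups, Emx2 differed by -0.93 (SE 0.10, adjusted p = 0.0693), Lhx2 by -0.58 (SE 0.09, adjusted p = 0.104) and Fabp7, a fatty acid binding protein of radial glia, by 1.39 (SE 0.13, adjusted p = 0.0546). For 11 subpallial markers the medians were 1.41, 0.85 and 1.94 in mutants 1, 2 and 3 and 1.14, 0.86 and -2.25 in controls 1, 2 and 3. The median was thus low in control 3 alone, and the other embryos carried these markers. No marker of any list passed the test (limma), and the part of these tissues in the differences of the BMP genes was not tested.

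**Figure D3:**
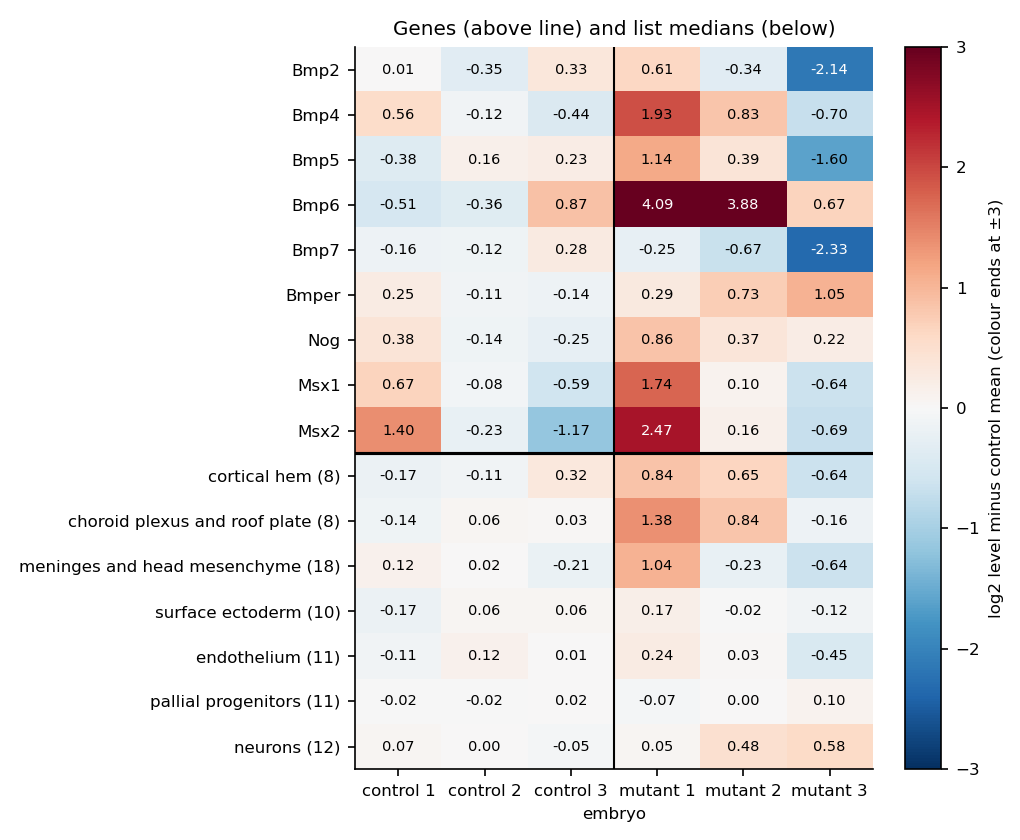
Level minus the control mean, on the log2 scale, in each of 6 embryos, for the 9 measured genes (above the line) and as medians of marker lists (below it, number of measured markers in brackets). Red is above and blue below the control mean, with colours ending at ±3. Mutants 1 and 2 stand high for Bmp6 and for the hem and choroid plexus lists, and mutant 3 stands low for Bmp2, Bmp5, Bmp7 and the hem list.

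Of 75 listed genes in 5 groups by role, 60 were measured, and none passed the test over all rows (limma). At an unadjusted p under 0.05 there were 6 higher and 1 lower, which is 7 of 60 beside 16.9% of all rows, and the median difference was 0.13. Groups did not overlap for 8 genes higher and 2 lower, beside 13.0% and 11.9% of all rows.

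Of the 8 other ligands measured, 6 had positive differences (median 0.24), the lowest p being that of Gdf3, a relative of Nodal (0.23, SE 0.08, adjusted p = 0.24), followed by Bmp10 (0.43, SE 0.21) and the oocyte factor Gdf9 (0.25, SE 0.14). These values were not stable. Gdf3 was 0.13 with quantile normalization, Bmp10 0.02 with the authors' log2 values, 0.24 with quantile normalization, 0.29 without mutant 1 and 0.65 without mutant 3, and Gdf9 0.12 without mutant 3. Gdf7, the roof plate ligand, read -5.43, -5.85 and -5.62 in control embryos against -5.36, -5.07 and -6.10 in mutant embryos. Of 12 receptors and co-receptors, 9 had positive differences (median 0.07). Bmpr1b, a type I BMP receptor, read -0.18, -0.47 and -0.48 in control embryos against 0.23, -0.06 and 0.22 in mutant embryos, with no overlap and a difference of 0.51 (SE 0.13, adjusted p = 0.188). Next were the co-receptor Rgmb (0.23, SE 0.13) and the type II receptor Acvr2a (0.28, SE 0.16). Without mutant 1 they were 0.36 and 0.45, and Acvr2a was 0.17 without mutant 3. Bmpr1a, the other main type I receptor, differed by -0.01 (SE 0.08).

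Among 11 Smads and Smad regulators, 6 had positive and 5 negative differences, with a median of 0.02. Zfp423, a zinc-finger partner of Smads, differed by -0.25 (SE 0.07, adjusted p = 0.203), and Zeb2, a Smad-interacting repressor, by 0.44 (SE 0.13, adjusted p = 0.218, or 0.25 without litter 3), each without overlap of the groups. Skil, a Smad co-repressor, differed by 0.21 (SE 0.09), or 0.13 with median centring. Smad1, Smad5 and Smad4, which carry the signal, differed by 0.02, -0.06 and -0.06 (SE 0.11, 0.08 and 0.07).

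The secreted regulators other than Bmper and Nog held the gene of the pathway with the lowest p. Fst, which encodes follistatin, a binder of activins and some BMPs, read -0.40, -0.77 and -0.76 in control embryos against 0.15, 0.24 and 0.36 in mutant embryos. All mutants exceeded all controls, and the spread was small (SD 0.21 in controls and 0.10 in mutants, n = 3 each). The difference was 0.89 (SE 0.13, adjusted p = 0.104), and did not pass, though it passed with normexp background correction (adjusted p = 0.0444) and with trend and robust variance (0.0417). Of the 16 measured regulators, 13 had positive differences (median 0.24), including the follistatin-related Fstl5 (0.68, SE 0.32) and Fstl3 (0.47, SE 0.21). Fstl5 was 0.36 without mutant 3. Fstl3 was 0.28 without control 3, 0.30 with quantile normalization and 0.14 with the authors' log2 values.

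The 13 other BMP-responsive genes had 7 positive and 6 negative differences (median 0.15). Id1 and Id3, inhibitors of bHLH factors and direct Smad targets, had mutant 1 highest and mutant 3 lowest among the mutants, as did the ligands, while Id2 was highest in mutant 3 (1.27, 1.19 and 1.33) and Id4 lowest in mutant 1 (4.26, 4.69 and 4.49). Id1 read 0.19, -0.02 and 0.32 in control embryos against 1.22, 0.76 and 0.11 in mutant embryos (difference 0.54, SE 0.29, or 0.27 without mutant 1 and 0.83 without mutant 3). Id3 read 0.67, 0.73 and 1.03 against 2.21, 1.52 and 0.02 (0.44, SE 0.55). Mutants 1 and 2 were above all controls for both genes, and mutant 3 was below all controls for Id3 only. Id2 differed by 0.25 (SE 0.08, adjusted p = 0.215) without overlap, and the Notch target Hey1 by -0.30 (SE 0.13), or -0.18 without control 3. Smad6 and Smad7, inhibitory Smads that BMPs induce, differed by -0.28 (SE 0.19) and -0.02 (SE 0.09), and the remaining Msx gene, Msx3, by 0.62 (SE 0.45). Lmx1a, Gdf7 and Sostdc1 are in these lists and also in the marker lists of hem or choroid plexus.

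**Figure D4:**
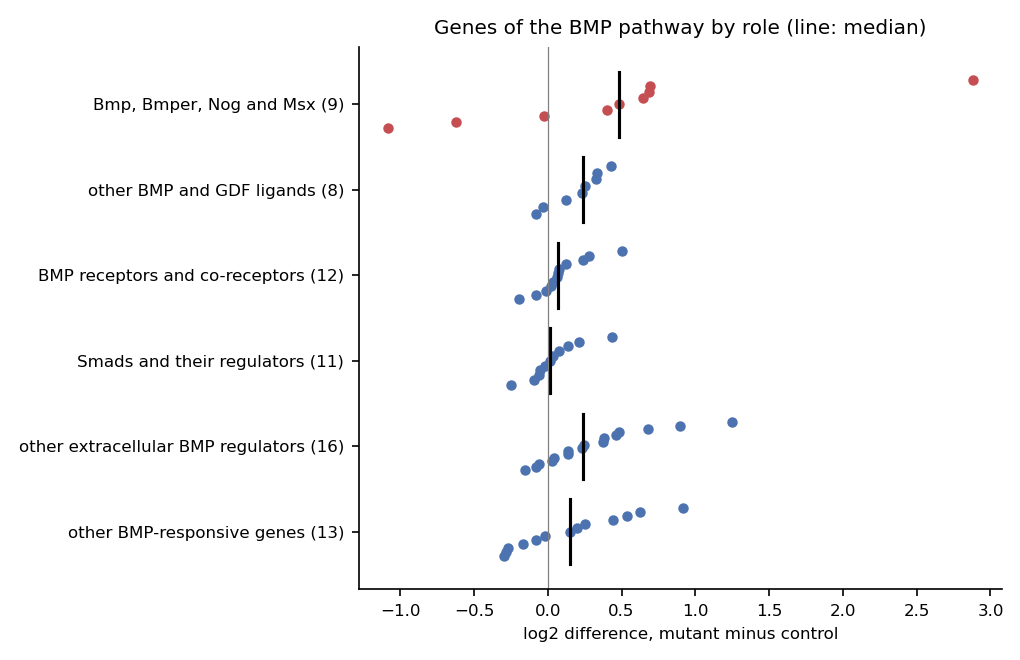
Log2 difference, mutant minus control, of every measured gene of the BMP pathway, by role, with the number measured in brackets and the median as a vertical line. The 9 genes described here (red) span from -1.08 to 2.88, and the medians of the receptors and of the Smads are 0.07 and 0.02, with Bmpr1b at 0.51 and Zeb2 at 0.44.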

How the data were processed

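RNA from the dorsal forebrain of 3 control and 3 mutant embryos was hybridised to 1-colour Agilent arrays, read with Feature Extraction 10.7.3.1 per the file headers. The 10 genes, the pathway and marker lists and the named-gene rule were chosen with earlier results of these data known.

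Per the file headers, the scanner files hold intensity values, of which the processed signal was used, together with flags for spots well above background. The authors deposited a comparison table of log2 values per embryo, a log2 ratio, a ratio (fold) and p-value and fdr columns. The submitters' processing notes name limma, and how the table was normalized is not stated there. The embryo numbers in that table were not shown to be those of the samples, so that only its groups were used. Among its mutants Bmp6 is lowest in number 2 (5.42), and here it was lowest in mutant 3. The log2 ratios and fdr of that table are quoted as the authors'. Its log2 values were also fitted here in limma, as the alternative named for the authors' log2 values.

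Here log2 signals were reduced by the log2 of each array's 75th percentile over non-control spots. Outlier spots were left out and spots of a probe averaged. A probe was kept if well above background on 3 or more of the 6 arrays (26849 of 39429), and the brightest probe of each gene was used. Of all probes, 26581 were named by accession, 3120 by the authors' table and 9728 not at all. Mutants were compared with controls in limma 3.58.1 (R 4.3.3) with Benjamini-Hochberg adjustment over 21068 rows, two-sided, threshold 0.05. On simulated data, 154 of 200 rows changed by 1.5 (log2) were recovered with 9 false calls. The labels put same-numbered embryos in 1 litter. The correlation of their deviations from the group means was 0.308, 0.357 and 0.107 for litters 1, 2 and 3, and -0.41 to 0.109 between litters.

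Named pathway genes were the 3 with the smallest unadjusted p in each list, and the 3 genes nearest to Msx1 and to Bmp4. Gdf7, Bmpr1a, Smad1, Smad4, Smad5, Smad6, Smad7, Id3, Id4 and Msx3, and the single marker genes given, were named after their values were seen. Probe positions are on mm9 and promoter windows on GRCm38.p6. Alternatives covered background correction, scaling, filters, probe choice, blocks, variance model, the authors' values and leaving out embryos.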

Additional observations from a re-analysis of the deposited data

How the results depend on the processing

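The count of the 9 BMP and Msx genes that passed was 0 in every setting run. Of 178 values of their differences over 20 alternatives, 168 kept their direction and 10 reversed, and 5 genes never reversed. Many of the 168 were fixed in advance. The filters, probe choices, blocks, variance model and threshold of 0.1 left each difference as reported wherever they gave a value. The count of kept directions is therefore no measure of stability. The lowest adjusted limma p was 0.072, for Bmp6 without litter 3, where no remaining control was above background, against 0.246 as reported. The difference of Bmp2 was 0.30 without litter 3, a choice made after seeing the data, and -1.24 to 0.14 when 1 embryo was left out. That of Bmp5 was 0.29 with normexp background correction, 0.061 with the authors' log2 values and 0.88 without litter 3. Leaving out single embryos gave -0.61 to 0.76 for Bmp5, with 0.052 without control 2 and 0.09 without control 3. Leaving out embryos gave -0.27 to 0.92 for Msx1 and -0.27 to 1.34 for Msx2, the lowest without mutant 1. A filter on all 6 arrays gives no value for Bmp5 and Bmp6. Of 300 values for 15 pathway genes 298 kept their side of the threshold, and Fst passed in 2 settings. Over all rows 7 passed. The count was 131 with normexp, 143 with trend and robust variance, 15 with quantile normalization, 22 with median centring, 22 with the authors' log2 values, 23 with the filter on all 6 arrays, 2 with each gene's probes averaged, 78 at adjusted p under 0.1, 1 without litter 3, and 0 to 1 when 1 embryo was left out. It was 0 with no filter, with the replicate block (litter), with slide as a block and on slide 2 alone. The causes were not tested. With the replicate block none of the 9 genes passed after adjustment either, but Bmp6 and Bmper went above an unadjusted limma p of 0.05 (0.0675 and 0.0577) and Nog and Msx2 below it (0.0018 and 0.0213). Dim probes limit Bmp5 and Bmp6.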
